A study of Arabidopsis thaliana with 16 samples.

Results

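Arabidopsis thaliana seedlings that carry only an empty inducible vector were given estradiol as a control for the inducer, with no insert to switch on. The 4 arrays of these seedlings were chosen by their titles from 16 in all. The tested seedlings carried pER8, the vector without insert, in the Col-0 background, were 2 weeks old when moved to MS plates with 20 µM estradiol, and were harvested after 3 or 6 days. Their reference seedlings had the same vector and age, were moved to MS plates without estradiol, and were harvested at the same 2 times. Each of these 4 conditions was 1 Affymetrix ATH1 array of total RNA from whole seedlings, grown under continuous light on plates with hygromycin. The other 12 arrays came from lines 9, 17 and 20 in which the same inducer switches on an artificial microRNA against the TOR kinase gene (amiR-tor), each line once with 20 µM estradiol and once without at 3 and at 6 days.

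Some labels contradict others. ORB1 is named in the series title, and the cultivar tag of these samples speaks of an inducible artificial microRNA, while their titles, source names and genotype tags give the empty vector. The groups rest on the titles. Nothing in the labels says how many seedlings or cultures stood behind an array, so the spread between days is the only repeat of the estradiol difference. Wild-type seedlings and a 0 day harvest are not analysed here.

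The pER8 vector produces a chimeric transcription activator whose DNA-binding part comes from a bacterial repressor and whose hormone-binding part comes from the human estrogen receptor. In the absence of estradiol the activator is held in the cytoplasm, and with estradiol it enters the nucleus and drives the promoter in front of the insert. Plants have no estrogen receptor of this kind, and seedlings with the empty vector are given the inducer so that effects of estradiol and of the activator itself can be set apart from those of the insert. With the empty vector alone, estradiol and the activated activator cannot be told apart.

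The 4 empty-vector arrays were alike in their technical controls. The 25S ribosomal RNA control read 11.39 and 11.41 (log2) with estradiol at 3 and 6 days, against 11.71 and 11.41 without. The actin 5′ minus 3′ difference, which falls when RNA is shortened, lay between -1.92 and -1.88 on the 4 arrays. RCA, the activase of the carbon-fixing enzyme Rubisco and a leaf marker, read 14.56 on both estradiol arrays and 14.60 and 14.66 on the arrays without it, near the top of the scale. The other 11 leaf markers had no named probe set, nor did any of the 12 flower markers. The 4 root markers kept of 10 summed on the linear scale to 10838.1 and 12313.6 with estradiol, against 12191.6 and 11634 without. That sum is mostly PYK10, which read 13.34 and 13.51 (log2) with estradiol, against 13.51 and 13.44 without. AT4G26010 differed by -0.27 and 0.47 at 3 and 6 days, EXPA7 by 0.21 and -0.25, and EXPA18 by 0.05 and -0.18. The part of these markers in the results below was not tested.

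Between estradiol and no estradiol, few transcripts differed by much on both days. Levels are the deposited log2 values, so a difference of 1 is a 2-fold difference, and a probe set was kept if it reached a log2 value of 4 on at least 2 of the 4 arrays, which left 13429. At 3 days 41 kept probe sets were higher by 1 or more with estradiol and 91 were lower, and at 6 days 59 were higher and 124 lower. On both days 3 were higher (0.0223% of those kept) and 17 lower (0.127%), while 7 lay past 1 in opposite directions. These 20 probe sets are described below, and since the differences chose them, their size is given as a description. They include AT5G59845, with the largest mean difference among them, a peroxidase gene, a pectinase gene and a chitinase gene. Since this is bulk RNA, fewer cells of a type and less RNA per cell cannot be told apart for any of them.

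The estradiol differences were about as large as differences between days. The estradiol difference had an SD across probe sets of 0.284 at 3 days and 0.329 at 6 days, and the difference of day 6 from day 3 had an SD of 0.318 within the estradiol arrays. Across the 13429 probe sets, which share the same arrays and are not independent replicates, the 3 day and 6 day differences correlated at r = 0.114 (Spearman 0.0674). Of 12403 probe sets with no difference of exactly 0, 6591 (53.1%) had the same sign on both days. In limma with day and estradiol as terms, 0 of the 13429 passed a Benjamini-Hochberg adjusted p under 0.05 (0%), with 695 (5.18%) at an unadjusted p under 0.05 and a smallest adjusted p of 0.818. That fit has 1 residual degree of freedom. In a fit of all 16 arrays, whose spread comes from the amiR-tor groups alone, limma also called 0, with 115 (0.86%) at an unadjusted p under 0.05.

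**Figure D1:**
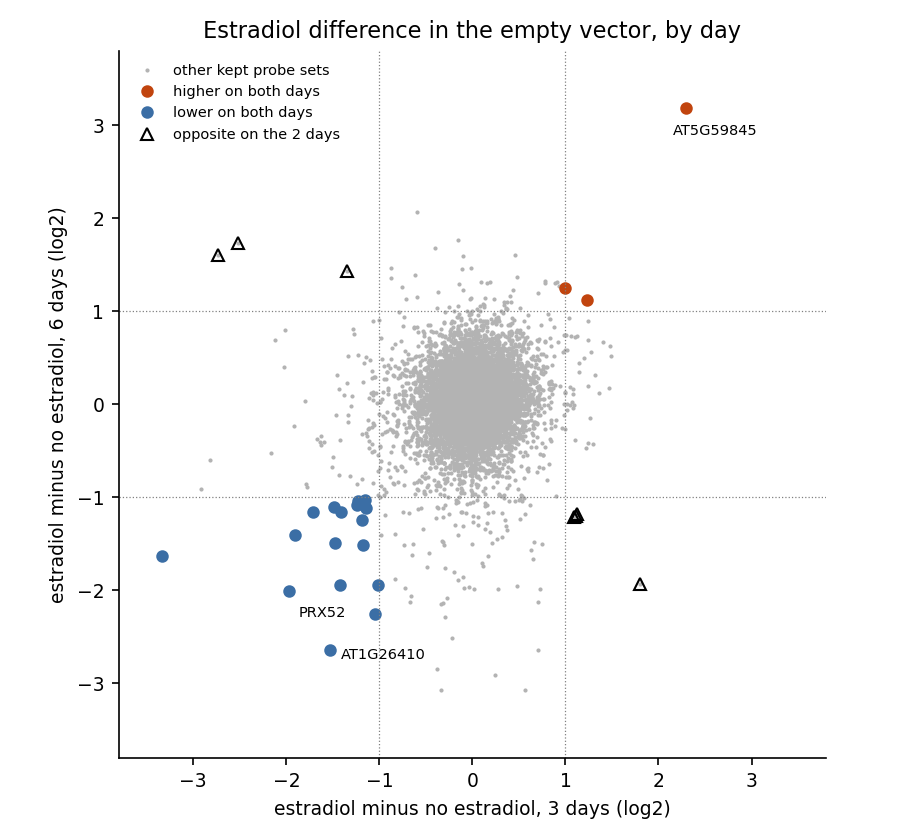
Estradiol minus no estradiol (log2) in the empty vector at 3 days (horizontal axis) and 6 days (vertical axis), 1 point per kept probe set, with dotted lines at a difference of 1. The 3 probe sets higher on both days and the 17 lower on both days lie in the outer corners, AT5G59845 apart at 2.30 and 3.19, and the 7 of opposite direction are triangles.

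Among the 3 probe sets higher on both days, AT5G59845 was far ahead. AT5G59845 stands on the list of GASA and defensin-like peptides, small secreted proteins rich in cysteine. It read 8.39 and 8.56 (log2) with estradiol at 3 and 6 days, against 6.09 and 5.37 without. Both estradiol arrays were above both arrays without it, and the difference was 2.30 at 3 days and 3.19 at 6 days. The mean of 2.75 ± 0.28 (SE, limma, 4 arrays) is a fold of 6.70. The SE of the same mean was 1.17 in the fit of all 16 arrays. AT5G59845 was the only kept probe set past 4-fold on both days in either direction.

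AT3G51280, a gene that the tables used here give no name, read 5.04 and 5.53 with estradiol at 3 and 6 days, against 4.04 and 4.28 without. The difference was 1.0 at 3 days, just at the limit, and 1.25 at 6 days. The probe set 258217_at, with no listed gene, read 4.66 and 4.37 with estradiol, against 3.43 and 3.25 without. It was kept through its estradiol arrays alone, so it had to differ to be counted. Just outside the limit were SAG29, with 1.04 and 0.93, and AT3G14360, with 0.91 and 1.31.

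Of the 17 probe sets lower with estradiol on both days, 11 had a locus and 3 a gene symbol, and the 3 with a symbol belong to families of enzymes that act outside the cell. PRX52, a class III peroxidase of the kind that cross-links phenolic compounds in cell walls, read 6.18 and 6.49 with estradiol at 3 and 6 days, against 8.15 and 8.50 without. The difference was almost the same on both days, -1.97 and -2.01, with a mean of -1.99 ± 0.093 (SE, limma, 4 arrays). That small SE rests on 1 residual degree of freedom in a probe set chosen by its differences. The SE of the same mean was 0.69 in the fit of all 16 arrays. The PRX52 difference is the largest in size among the lower ones when ranked by the smaller of the 2 days, and corresponds to a 3.97-fold lower level.

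ADPG1, a polygalacturonase that breaks down pectin where cells separate, read 5.35 and 5.08 with estradiol at 3 and 6 days, against 6.53 and 6.59 without. Its differences were -1.18 and -1.51. CHI (AT2G43570), annotated as a chitinase, an enzyme that cuts the chitin of fungal walls, read 8.82 and 9.63 with estradiol, against 10.53 and 10.79 without. Its differences were -1.71 and -1.16. For ADPG1 and CHI both estradiol arrays lay below both arrays without it.

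AT1G26410 and AT1G26420 are next to each other in the RefSeq annotation. AT1G26410 read 5.35 and 4.73 with estradiol at 3 and 6 days, against 6.88 and 7.37 without. AT1G26420 read 6.39 and 6.85 with estradiol, against 7.80 and 8.01 without. Both neighbours were thus lower on both days, by 1.53 and 2.64 in the first and by 1.41 and 1.16 in the second. Whether their probes share transcripts was not tested.

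AT5G10040 read 4.72 and 4.84 with estradiol at 3 and 6 days, against 6.2 and 6.33 without. Its 2 differences, -1.48 and -1.49, were as close to each other as those of PRX52. AT3G18250 read 8.15 and 8.19 with estradiol, against 9.57 and 10.13 without. AT3G13950 read 7.07 and 7.50 with estradiol, against 8.26 and 8.74 without. For AT3G18250 and AT3G13950 too, every estradiol array lay below every array without it. AT5G42830, at -1.15 and -1.03, was the named gene closest inside the limit, and AT4G34950, at -0.99 and -1.0, AT5G40590, at -0.98 and -1.41, and AT1G68500, at -1.02 and -0.98, were the closest outside.

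The remaining lower probe sets were dim with estradiol or had no listed gene, apart from AT5G08360. In 4 of the 17, namely 262128_at, AT2G42360, 259447_s_at and 250182_at, both estradiol values were under a log2 of 4, too dim to be told from background, and these were kept through the arrays without estradiol alone. AT2G42360 read 3.21 and 2.88 with estradiol at 3 and 6 days, against 5.12 and 4.28 without. The widest of them, 262128_at, read 3.01 and 2.95 with estradiol, against 6.35 and 4.58 without. For 250182_at the values were 3.23 and 2.76 with estradiol, against 4.28 and 5.01 without. AT5G08360 and the probe sets 257540_at, 247095_at and 247215_at were lower by between 1.01 and 1.94 on the 2 days.

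In all 20 probe sets the estradiol and no-estradiol arrays did not overlap, which the choice by size largely sets. Among all kept probe sets, both estradiol arrays lay above both others in 20.0% and below them in 11.3%. The limma adjusted p was 0.818 for each of the 20. With 1 array per condition, the inducer also cannot be told apart from differences between plates or harvests.

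**Figure D2:**
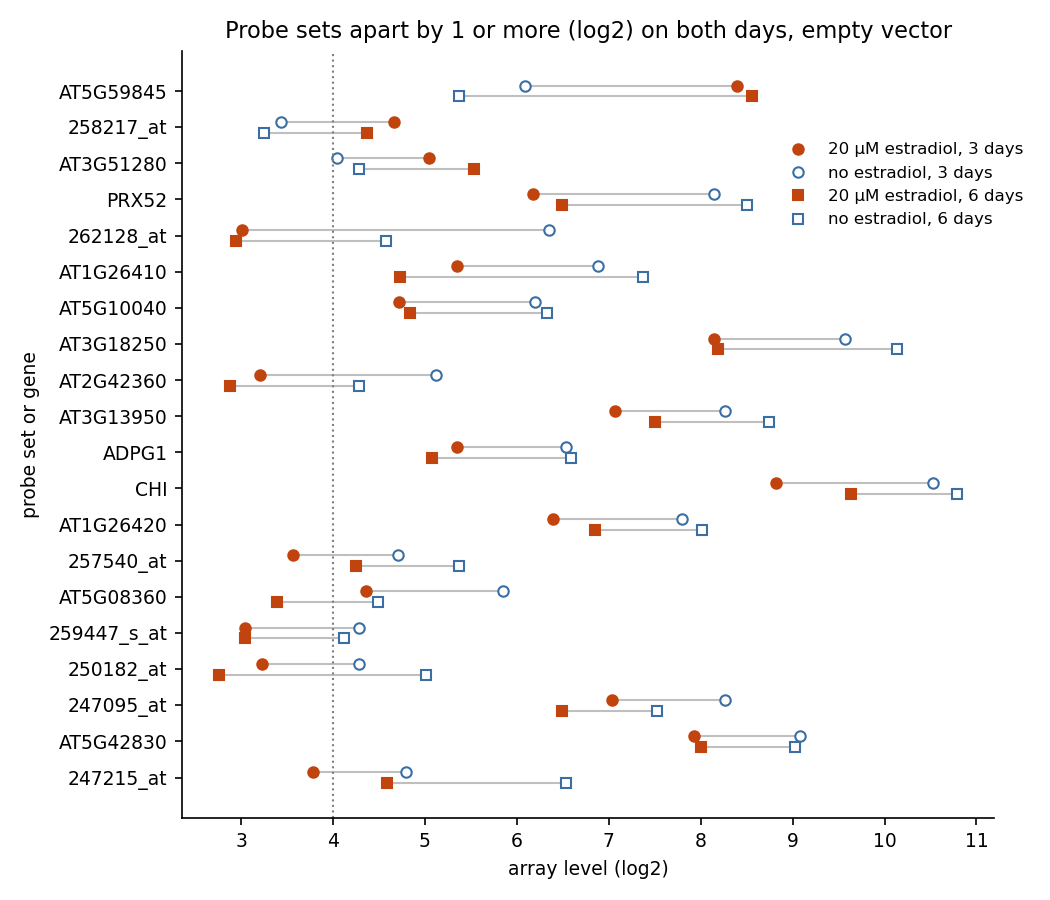
Array level (log2) of the 20 probe sets with estradiol (filled) and without it (open) at 3 days (circles) and 6 days (squares) in the empty vector, with a dotted line at the log2 value of 4 under which a probe set counts as dim. The top 3 have filled symbols to the right, and the other 17 to the left.

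The amiR-tor lines got the same inducer and were not used to choose these probe sets, so they give each one 6 further pairs of arrays, together with whatever the microRNA did. By the 25S control, line 9 changed its kind of array between induced and uninduced, at 6.66 or less on the induced arrays. In lines 17 and 20 both arrays of a pair were of one 25S kind. The actin 5′ minus 3′ difference was still apart in line 17 at 3 days, at -8.58 with estradiol and -4.47 without. In line 20 at 3 days it was -4.52 with estradiol and -4.65 without. At 6 days it was -1.84 and -1.82 in line 17, and -1.73 and -1.7 in line 20. No probe set was listed for TOR, so how far it was silenced was not checked. In this contrast limma called 266 probe sets higher (1.98% of those kept) and 76 lower (0.566%). The total of 342 was 49 with the 25S class as a covariate, 3 without line 9, 1 without line 17 and 351 without line 20.

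AT5G59845 was the 1 of the 20 that passed there. With estradiol it read 10.52, 7.65 and 11.41 (log2) in lines 9, 17 and 20 at 3 days and 9.46, 6.07 and 8.54 at 6 days. Without estradiol the same lines read 5.53, 5.77 and 6.39 at 3 days and 5.36, 5.92 and 6.19 at 6 days. It was higher in all 6 pairs, by 0.15 in line 17 at 6 days and by 1.88 to 5.02 in the other 5. It rose by 3.08 ± 0.67 (SE; limma adjusted p = 0.0419), and the difference between this contrast and the empty vector was 0.34 ± 1.3 (SE; limma adjusted p = 0.985). With the 25S class as a covariate the limma adjusted p was 0.145, and without any 1 of the lines it was between 0.0758 and 0.277.

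Of the 3 higher probe sets 1 was higher in all 6 pairs, against 11.5% of all kept probe sets. Of the 17 lower ones 2 were lower in all 6 pairs, against 7.26% of all kept, and 0 of the 17 passed in limma. Those 2 were AT5G10040 and 250182_at. In the 4 pairs of lines 17 and 20, where the 25S kind of array did not change, 3 of the 17 were lower throughout, against 13.2% of all kept. The actin 5′ minus 3′ difference was still apart in line 17 at 3 days. The mean in the amiR-tor lines had the same sign as in the empty vector for 9 of the 17. So most of the lower probe sets did not have one direction across the amiR-tor pairs.

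AT5G10040 read 6.99, 5.37 and 3.42 (log2) with estradiol in lines 9, 17 and 20 at 3 days and 5.37, 4.6 and 4.58 at 6 days. Without estradiol it read 8.03, 9.27 and 5.75 at 3 days and 8.20, 6.31 and 5.34 at 6 days. It was lower in every pair, by 0.76 to 3.90, and the mean of -2.10 ± 0.74 (SE) had a limma adjusted p of 0.123.

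PRX52 had both signs in the lines. With estradiol it read 4.40, 4.63 and 4.27 in lines 9, 17 and 20 at 3 days, against 5.80, 6.25 and 6.33 without. At 6 days it read 5.43, 7.67 and 6.68 with estradiol, against 8.24, 6.46 and 6.39 without. It was lower in all 3 pairs at 3 days, by 1.40, 1.62 and 2.06. At 6 days it was lower in line 9 and higher in lines 17 and 20, by 1.21 and 0.29, and the mean over both days of -1.07 ± 0.40 (SE) had a limma adjusted p of 0.136. In lines 17 and 20 the 25S control was 6.03 or less on the 3 day arrays and 11.38 or more on the 6 day arrays, so day and kind of array cannot be told apart there.

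AT3G51280, AT3G13950 and 257540_at went the other way in all 6 amiR-tor pairs. AT3G51280, higher with estradiol in the empty vector, was lower by 0.17 to 0.53 in the pairs. AT3G13950, lower in the empty vector, was higher by 0.30 to 1.83 in the pairs. The differences between the contrasts did not pass in limma, with an adjusted p of 0.368 for AT3G51280 and of 0.964 for the other 2. Over all kept probe sets this difference passed in limma for 1 (0.00745%), 252984_at, which is not among the 20 and had empty-vector differences of 0.11 and -0.16.

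**Figure D3:**
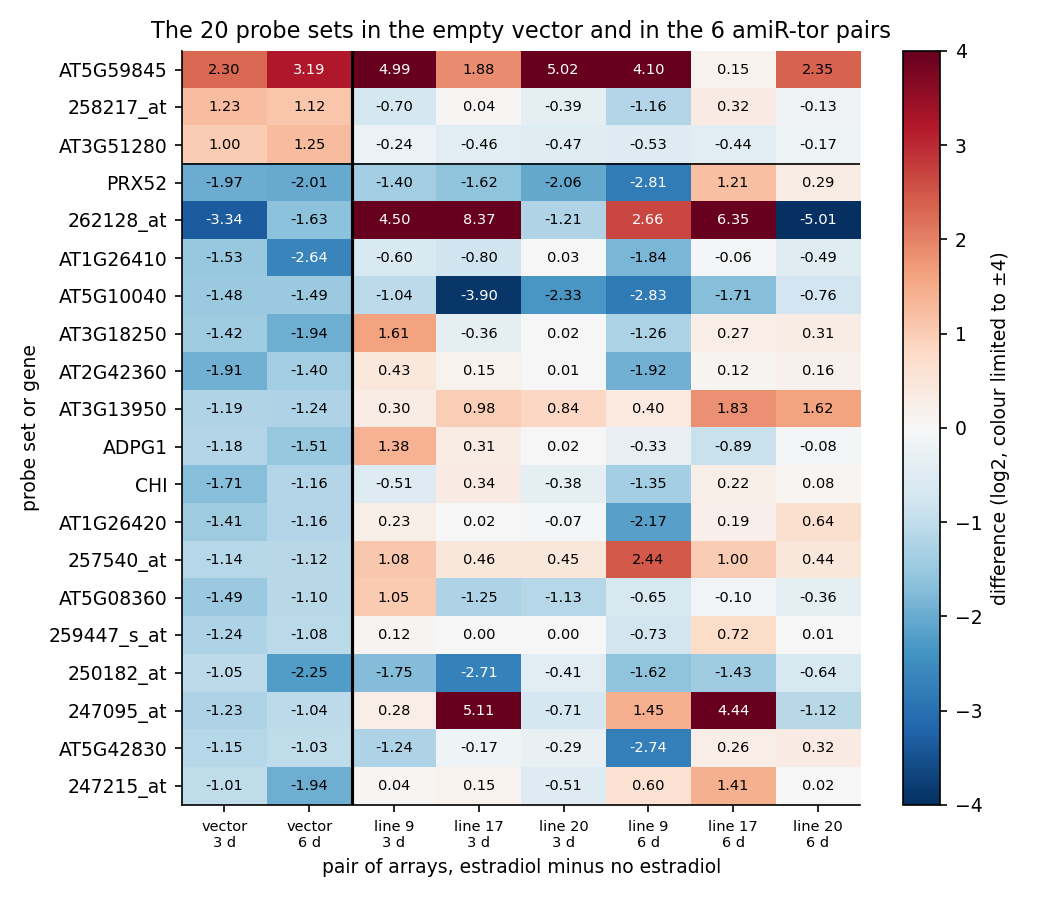
Estradiol minus no estradiol (log2, printed in each cell and as colour) of the 20 probe sets in the empty vector at 3 and 6 days (2 left columns) and in the 6 amiR-tor pairs, by line and day. AT5G59845 is positive and AT5G10040 and 250182_at are negative in all 8 columns, while AT3G51280, AT3G13950 and 257540_at have the opposite sign in the 6 right columns.

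The 6 uninduced amiR-tor arrays, in other lines but without estradiol, give another level to set beside that of each probe set. The choice by size favours high estradiol values in the 3 and low ones in the 17, so these counts are a description. For the 3 higher probe sets both estradiol arrays of the empty vector lay above all 6 of these, and both arrays without estradiol lay within their range. Of the 17 lower probe sets, both estradiol arrays lay below all 6 in 2, ADPG1 and AT5G10040, and within their range in 12. Both arrays without estradiol lay above all 6 in 2, CHI and 259447_s_at, and within their range in 11. Over all kept probe sets, both estradiol arrays lay above all 6 in 6.52%, below them in 3.89% and within their range in 63.2%. Both arrays without estradiol lay above all 6 in 3.76% of all kept and within their range in 65.7%. Line, genotype and kind of array cannot be told apart in these levels.

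ADPG1 read 6.45 to 7.85 in the lines with estradiol and 6.47 to 7.47 without (6 arrays each), with pair differences from -0.89 in line 17 at 6 days to 1.38 in line 9 at 3 days. Its 2 empty-vector values with estradiol, 5.35 and 5.08, were below all 12 amiR-tor arrays. In the amiR-tor contrast ADPG1 differed by 0.07 ± 0.22 (SE; limma adjusted p = 0.864). CHI read 7.93 to 10.15 in the uninduced lines, with a median of 9.09, so its empty-vector values with estradiol, 8.82 and 9.63, lay within that range. The values of CHI without estradiol, 10.53 and 10.79, lay above it. PRX52 read 5.80 to 8.24 in the uninduced lines, with a median of 6.36, and its empty-vector values with estradiol, 6.18 and 6.49, lay on either side of that median. Without estradiol the empty vector was at 8.15 and 8.50, close to or above the highest of these lines.

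**Figure D4:**
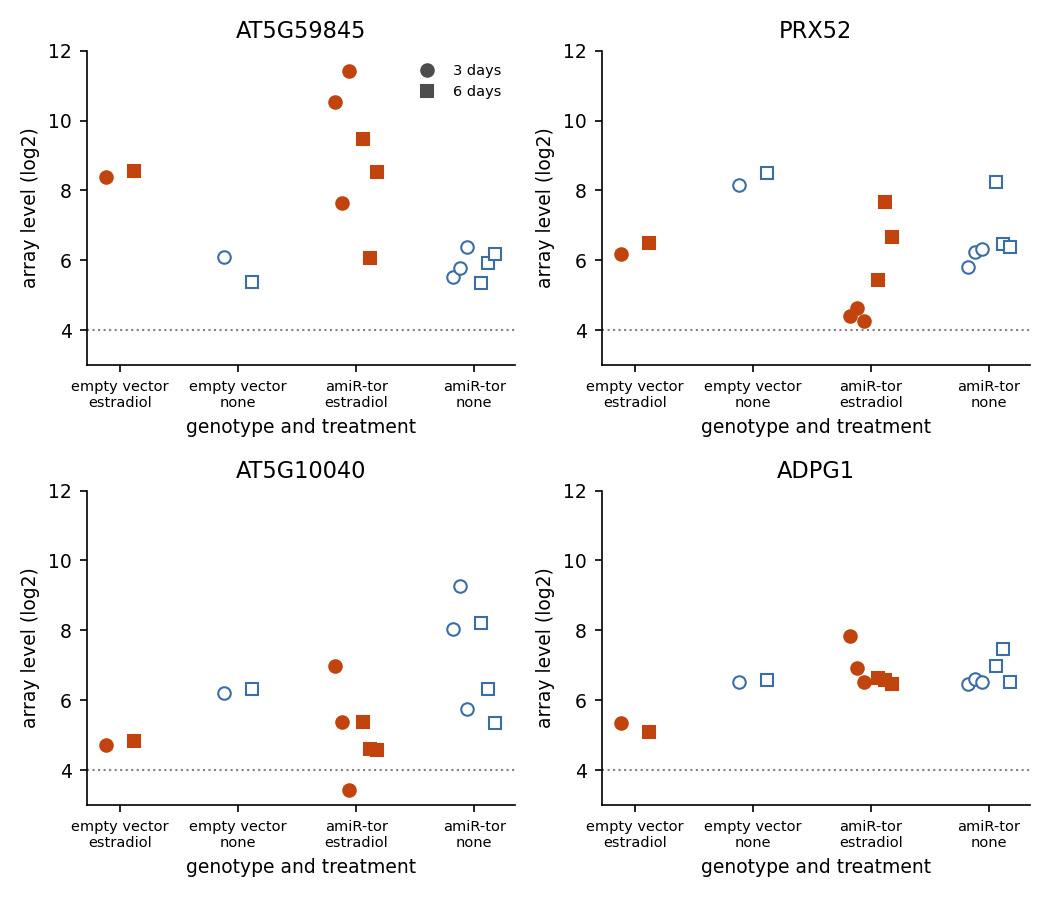
Array level (log2) of 4 genes on all 16 arrays, by genotype and treatment, with 3 days as circles, 6 days as squares and a dotted line at the dim limit of 4. AT5G59845 is higher with estradiol in every same-day, same-line pair, ADPG1 is lower with estradiol in the empty vector at 5.35 and 5.08, and PRX52 without estradiol is higher in the empty vector than in most amiR-tor arrays.

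A wider set, past 1.5-fold (0.585 on the log2 scale) on both days, held 40 higher probe sets (0.298% of those kept) and 68 lower ones (0.506%), with 47 in opposite directions. Of the 40, 12 (30%) were higher in all 6 amiR-tor pairs, against 11.5% of all kept, and 6 of the 40 passed upward in limma. Of the 68, 10 (14.7%) were lower in all 6 pairs, against 7.26% of all kept. In limma 5 of the 68 passed downward, AT5G26200, AT3G10040, AT1G19540, 253660_at and 248197_at, and 1 upward, 267559_at. Over all kept probe sets the limma calls were 1.98% upward and 0.566% downward. Of the 12 calls in this wider set, 3 passed with the 25S class as a covariate (AT5G26200, AT5G48570 and 267559_at), 0 without line 9, 0 without line 17 and 7 without line 20. The higher set had 5 gene symbols, all given here because they are so few, and chosen after their values were seen. SAG29, the sugar transporter SWEET15 that marks senescing leaves, read 6.4 and 5.83 with estradiol, against 5.36 and 4.90 without, and rose by 3.15 ± 0.62 (SE; limma adjusted p = 0.0293) in the amiR-tor lines, with an adjusted p of 0.103 with the covariate and of 0.04 to 0.466 without a line. TBL26, of a family that acetylates wall polysaccharides, read 5.64 and 4.79 with estradiol, against 4.40 and 3.89 without. AGL42, a MADS-box transcription factor, and sks15, related to multicopper oxidases of the wall, were higher by a mean of 0.93 and 1.05. LCR68, a small cysteine-rich peptide, read 12.43 and 12.12 with estradiol, against 11.72 and 11.53 without.

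AT5G48570, listed with the synonym FKBP65, a peptidyl-prolyl isomerase of the chaperone list, read 8.79 and 8.29 with estradiol at 3 and 6 days, against 7.73 and 7.56 without. It was higher in every amiR-tor pair and rose there by 0.90 ± 0.14 (SE; limma adjusted p = 0.014), beside an empty-vector mean of 0.90. Its limma adjusted p was 0.0368 with the covariate and 0.0427 to 0.466 without a line. On the lower side, AT3G10040, listed with the synonym HRA1 (hypoxia response attenuator), read 5.30 and 5.40 with estradiol, against 6.23 and 6.34 without. It fell by 1.40 ± 0.30 (SE; limma adjusted p = 0.0376) in the amiR-tor lines and was lower in all 6 pairs, with an adjusted p of 0.116 with the covariate and of 0.0335 to 0.466 without a line. The genes of the wider set with a symbol on the lower side and not yet named were EXPA8, PDF1.4, Fes1B, THI2.1 and JRG21.

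EXPA8, an expansin that loosens cell walls, read 7.99 and 8.16 with estradiol, against 8.97 and 8.77 without. PDF1.4, a plant defensin, read 9.86 and 9.96 with estradiol, against 11.05 and 10.76 without. THI2.1, a thionin, read 5.54 and 5.34 with estradiol, against 6.2 and 7.4 without, and JRG21, an oxygenase that hydroxylates jasmonate, read 5.90 and 5.46, against 6.57 and 7.58 without. For THI2.1 and JRG21 the array without estradiol at 6 days stood above the other 3. In the amiR-tor lines both had a mean of the opposite sign, 1.20 and 1.36, with limma adjusted p values of 0.43 and 0.0684.

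Families and pathways were described through 25 lists of loci, by counts and by the median of the mean difference over both days. Many listed loci had no named probe set, so a locus that was not kept was not necessarily dim. Over the 7134 genes kept with a locus that median was 0.04, with 2 higher and 11 lower by 1 on both days. The list of pathogenesis and defence genes had the lowest median among lists with at least 5 genes kept. The lists were chosen with earlier results of these data known, so this rank is a description and carries no test. Of its 32 loci 10 had a named probe set and 9 were kept. These 9 had a median of -0.64, and 6 of them were negative on both days, against 1349 of the 7134. CHI was the 1 member past 1 on both days, and 0 of the 9 passed in limma.

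Its other members covered several roles. OSM34, an osmotin-like pathogenesis protein, read 12.05 and 12.07 with estradiol at 3 and 6 days, against 12.35 and 13.58 without. PDF1.2b, a defensin of the jasmonate and ethylene response, read 10.48 and 9.44 with estradiol, against 10.99 and 10.40 without. WRKY53, a transcription factor of defence and leaf senescence, read 6.72 and 7.26 with estradiol, against 7.79 and 7.46 without. The differences of OSM34 and WRKY53 lay mostly on a single day, 6 days for OSM34 at -1.51 and 3 days for WRKY53 at -1.07. AT1G02360 was even, at -0.91 and -0.71. PDF1.2 was at -0.85 and -0.10. SAG101, a regulator of immune signalling, was the 1 member positive on both days, at 0.37 and 0.40. AT2G43590 and AT4G01700 had opposite signs at 3 and 6 days, at 0.35 and -1.24 and at -1.43 and 0.16. In the amiR-tor lines the median of the list was -0.22, and 1 of the 9, AT2G43590, fell by 1.0 (limma adjusted p = 0.0212), with an adjusted p of 0.0709 with the covariate and of 0.0497 to 0.466 without a line.

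The list of GASA and defensin-like peptides spread to both sides. Of its 10 kept genes 5 were positive and 3 negative on both days, with a median of 0.24 and a range from -1.0 for PDF1.4 to 2.75 for AT5G59845. PDF2.5 read 7.29 and 7.80 with estradiol, against 6.92 and 6.78 without. PDF2.1 was higher at 3 days, by 1.36, and by 0.12 at 6 days.

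Among class III peroxidases, PRX52 stood alone. Of 32 kept, it was the 1 past 1 on both days, and the median was 0.07. AT5G64110 and AT5G39580 were lower by 1.92 and 1.03 at 3 days, and differed by -0.23 and 0.01 at 6 days. The cell wall families, expansins, xyloglucan and cellulose enzymes, pectinases and acetylation proteins, had 39 genes kept and a median of 0.04. ADPG1 was the 1 past 1 on both days. It was put on this list as a single locus, with earlier results known, while the other members came by family symbol. Its standing out among them therefore carries no test.

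Families that process foreign compounds were described by 3 lists. Glutathione transferases, which couple glutathione to such compounds, had 10 kept and a median of 0.22, with GSTU26 at 0.27 and 0.92 and GSTU23 at 0.68 and 0.30 on the 2 days. Glycosyltransferases had 28 kept and a median of 0.11, with UGT71C3 at 0.62 and 0.16 and UGT74D1 at 0.36 and 0.40. Cytochrome P450 enzymes, without 2 cyclophilins whose symbols share the prefix, had 11 kept and a median of -0.10, among them CYP71B34 at 0.64 and 0.07 and CYP71B6 at -0.01 and -0.92. Among the kept genes of these 3 lists, 0 lay past 1.5-fold on both days in either direction. Over the 7134 genes kept with a locus, only 21 were higher and 37 lower by that limit. A count of 0 in lists of this size therefore says little about these families. Named probe sets covered 13 of 41 glutathione transferase loci, 47 of 58 glycosyltransferase loci and 23 of 236 P450 loci. The remaining loci could not be looked at.

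The 13 kept genes of chlorophyll synthesis and light harvesting had a median of -0.08. On both days 8 of them were negative and 0 positive, against 1349 and 2129 of the 7134. Several of these differences were small, as for PSB27 at -0.10 and -0.09 and HEMB1 at -0.05 and -0.08. PORB, which makes chlorophyllide in the light, read 9.61 and 10.58 with estradiol, against 10.69 and 10.82 without, and the other 12 lay between -0.24 and 0.05. For the photosystem subunit PSBW the values were 13.42 and 13.38 with estradiol, against 13.56 and 13.72 without. Autophagy genes had 10 kept and a median of 0.03, from -0.14 for ATG8G to 0.29 for ATG8B, and housekeeping genes 5 kept and a median of 0.04. Heat shock genes and chaperones had 8 kept and a median of -0.07, between Fes1B, a nucleotide exchange factor of Hsp70, at -1.32 and -0.77, and AT5G48570.

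The other lists had few genes on named probe sets and 0 past 1 on both days. Auxin response had 6 kept, with the conjugating enzymes GH3.3 and WES1 lower at 6 days by 1.48 and 1.06, and at 0.66 and -0.03 at 3 days. THI2.1 was the 1 gene kept of the jasmonate list. Anthocyanin genes had 3 kept and a median of 0.20, with DFR, the dihydroflavonol reductase, at -0.08 and 0.48, and UGT78D2 at 0.40 and 0.19. BCAT4, an aminotransferase of glucosinolate synthesis, was at -0.30 on both days, and PYE, a regulator of the iron response, at -0.27 and -0.79. Senescence and sugar starvation genes had 5 kept, with a median of -0.16 and MCCA, of leucine breakdown, at 0.01 and -0.72. Among dehydration genes, the dehydrin LTI30 was at 0.35 and 0.32 and COR15B at -0.36 and -0.26. Cell division genes had 3 kept, with AUR1 at -0.51 and 0.21 and PRL at 0.06 and 0.24. EIN3, the master factor of ethylene signalling, was at -0.11 and -0.10, RTE1 at -0.01 and -0.46, and GI, of the clock, at 0.00 and 0.17. The brassinosteroid list had 1 of 30 loci on a named probe set and 0 kept.

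**Figure D5:**
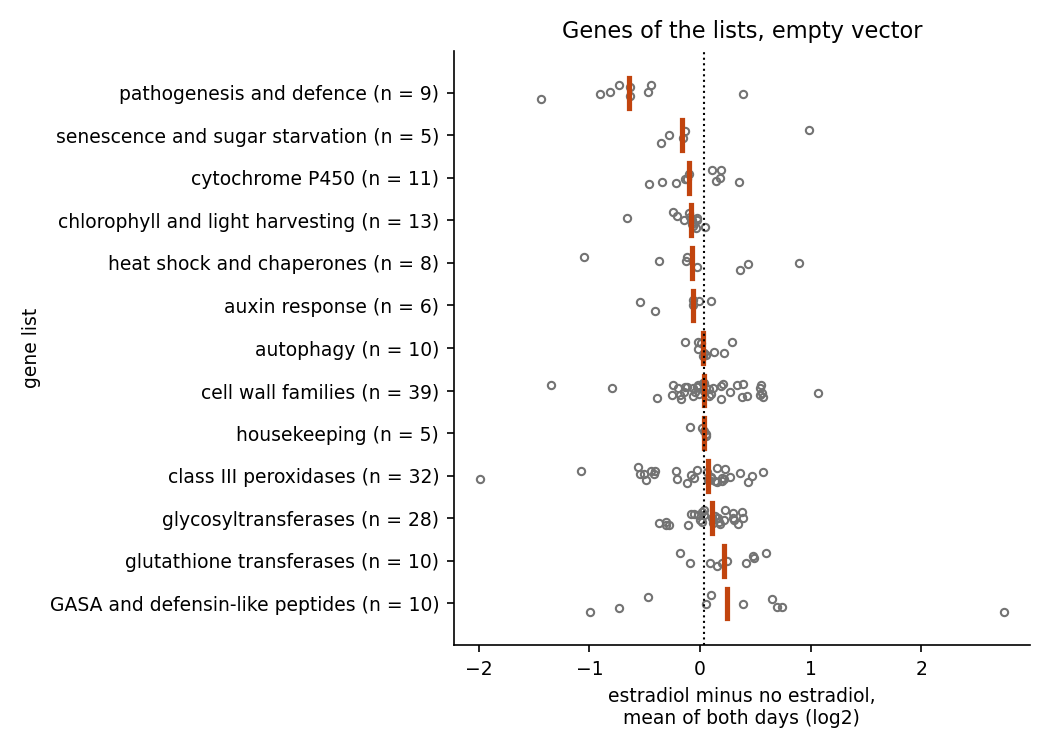
Mean over both days of estradiol minus no estradiol (log2) in the empty vector, 1 circle per kept gene, for the lists with at least 5 genes kept, with the list's median as a bar and the median of all genes, 0.04, as a dotted line. The defence list has the lowest median, -0.64, and AT5G59845 stands apart at 2.75 among GASA and defensin-like peptides. The lists were chosen with earlier results of these data known.

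Whether the estradiol difference itself changed between 3 and 6 days was tested with the spread of all 16 arrays. Limma called 0 probe sets, with 68 (0.51%) at an unadjusted p under 0.05. The genes with the largest statistics were AT3G14280, at -1.27 and 0.76, and AT4G02800, at -0.87 and 1.47, toward a higher value at 6 days, and AT5G19110, at 0.53 and -0.99, and AT3G47540, at 0.38 and -0.78, toward a lower one. TBL34 and TBL28, of the wall acetylation family, were at -0.62 and 1.39 and at -0.48 and 0.64. AT2G27140 was at -0.77 and 0.68, AT1G15830 at 0.19 and -1.37, AT1G68620 at -0.38 and -2.84, and AT2G23270 at 1.80 and -1.93. All had a limma adjusted p of 1.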

How the data were processed

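Affymetrix ATH1 arrays, 1 per sample, measured total RNA. The authors deposited log2 values made with GCRMA, which corrects background, normalizes across arrays and summarises probe sets, per the submitters' processing notes. The GCRMA version is not given in the sources used. The normalization assumes that most genes keep their level, and near the floor of 2.12 differences are compressed. Precision is limited by the number of arrays.

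Of 22810 probe sets, 64 controls and 9317 dim ones (log2 under 4 on more than 2 of the 4 empty-vector arrays) were left out, and 13429 were kept. The table of probe set names lists 1 gene for 13513 probe sets, several for 503 and none for 8730; 7174 kept probe sets had a locus, named through the RefSeq TAIR10.1 table, and 1051 a symbol other than the locus. No coordinates or sequences are given, and promoters are not analysed here.

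The 4 empty-vector arrays entered a limma 3.58.1 model in R 4.3.3 (day plus estradiol, lmFit and eBayes), and all 16 arrays with 1 mean per group. Calls are those with p under 0.05 after Benjamini-Hochberg adjustment over all 13429 kept. p-values measure only the spread between these arrays, which may be technical. An empty-vector condition has 1 array, so its spread in the 16-array fit is that of the amiR-tor groups. The day pairs the empty-vector arrays by design and is a term in their fit. The line pairs the amiR-tor arrays, but the main 16-array fit has no line term. The amiR-tor SEs and p-values are therefore unpaired, and the 2 days of a line count in them as independent arrays. A fit with the line as a replicate block is among the alternatives. No 2 empty-vector arrays looked like copies (r at most 0.991, with 3.52% to 4.27% identical values). The fits were tested on simulated data.

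Named genes were, among probe sets with a locus past 1 on both days, up to 14 each way; in each list the members past 1 on both days or else the 2 with the largest mean difference; and 5 each way for the day comparison. Where a gene had several probe sets, the brightest stood for it. Other names were chosen after their values were seen. The members, the lists and these rules were chosen with earlier results of these data known. Alternatives were other filters, quantile normalization, other fold limits, fits with and without the pairing, a 25S covariate and leaving out a pair or a line.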

Additional observations from a re-analysis of the deposited data

Results flagged for a closer look

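In 7 probe sets the empty-vector differences at 3 and 6 days lay past 1 in opposite directions, and the change between days had a limma adjusted p of 1 for each. The 6 day minus 3 day value was -3.73 for AT2G23270, 2.78 for AT3G21080, 4.34 for 249477_s_at and 4.25 for 250445_at. It was -2.30 for both 257331_at and 259481_at and -2.31 for 261556_s_at.

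In 3 of the 20 probe sets past 1 on both days, all 6 amiR-tor pairs had the opposite sign to both empty-vector pairs. The amiR-tor minus empty-vector value was -1.51 for AT3G51280 (limma adjusted p = 0.368), 2.21 for AT3G13950 and 2.11 for 257540_at (limma adjusted p = 0.964 for both).

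For 252984_at, which has no listed gene, the amiR-tor contrast minus the empty-vector contrast was 2.64 ± 0.28 (SE; limma adjusted p = 0.0189). It was past the threshold neither with the line as a replicate block (adjusted p = 0.0622) or the 25S class as a covariate (0.0578), nor without any 1 of the lines (0.163 to 0.661).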

How the results depend on the processing

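The count of 0 calls for estradiol in the empty vector was 0 in limma without a filter, with a filter at log2 6, after quantile normalization, with no replicate block (day left out of the fit), with trend and robust settings, with the 10 arrays of high 25S and with all 16 arrays. The 348 alternative values of the 52 named genes had the direction of the reported value and did not pass, with a smallest adjusted p of 0.402. Probe sets past the limit on both days numbered 1 higher and 10 lower with the filter at log2 6, 40 and 68 at 1.5-fold, and 1 and 0 at 4-fold. By a single day, leaving out the other, the counts ran from 41 to 59 higher and from 91 to 124 lower. The amiR-tor contrast gave 342 calls, 536 with the line as a replicate block, 49 with the 25S class as a covariate, 3 without line 9, 1 without line 17 and 351 without line 20. Its difference from the empty vector gave 1 call, and 0 with the line as a replicate block, with the covariate or without any 1 line (0 to 0). AT5G59845 in the amiR-tor contrast had an adjusted p of 0.0286 with the line as a replicate block, and its value was 2.63 with the covariate and 2.35 to 4.12 without a line. With only the pairs of lines 17 and 20, an alternative chosen after seeing the data, the same-sign counts were 1 of 3 higher and 3 of 17 lower. The 2 cyclophilins were left out of the P450 list after seeing the data, and with them it had 13 kept and a median of -0.02. The causes of these shifts were not tested. With 1 array per condition, 1 residual degree of freedom and the authors' floor of 2.12, small or dim differences could not be resolved.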

Other observations

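AT5G10040 and AT3G10040 led to a list of 30 loci of the low-oxygen response, drawn up after their values were seen, so its values carry no test. Without those 2 genes, 10 of its loci were kept, with a median of -0.12 over both days in the empty vector, against 0.04 over all 7134 genes. Of the 10, 5 were negative on both days and 1 positive, against 1349 and 2129 of the 7134. AT1G33055 read 8.95 and 8.22 (log2) with estradiol at 3 and 6 days, against 9.47 and 9.15 without. AT4G10270 read 9.15 and 9.37 with estradiol, against 10.14 and 9.83 without. AT5G42200 differed by -0.35 and -0.43. AT3G29970, the 1 positive on both days, read 4.85 and 4.56 with estradiol, against 4.18 and 4.08 without. In the amiR-tor lines the median of the 10 was -0.43, and 0 of the 10 passed in limma.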
